A study of Mus musculus with 41 samples.

Results

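Lesions from mice without group 2 innate lymphoid cells (ILC2s) were compared with lesions from ILC2-competent mice that carry the same Cre driver, all under interleukin-33 (IL-33). The comparison held 8 of the 41 libraries of the study. Nmur1iCre-eGFP Id2fl/fl lesions, which the study designed to lack ILC2s (deficient lesions, n = 4, replicates 1 to 4), were set against lesions with Nmur1iCre-eGFP alone (Cre controls, n = 4, replicates 1 to 4). Libraries were chosen by genotype and treatment alone: all 8 came from lesions given IL-33, without transferred ILC2s, without added PBS and without exchange of lesions between genotypes. Each lesion was a uterine punch of 4 mm glued inside the peritoneal cavity of a recipient, and the mice were 12 to 16 weeks old. From day 7, 1 µg of IL-33 was injected into that cavity 3 times within 6 days. Both genotypes therefore carried the Cre and received IL-33, and they differed by the floxed Id2 alleles. The Cre is driven by the Nmur1 gene, so that Id2 is meant to be deleted only in cells that use this driver, and other cells of a deficient lesion keep Id2. The labels do not state the genotype of the recipients in these groups, nor whether each replicate is another animal. The p-values therefore describe spread among libraries, part of which may be technical. That spread was estimated over all 41 libraries of the study, not over the 8 compared ones alone. The library names of the 2 groups interleave, and no batch is labelled.

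ILC2s are tissue lymphocytes without antigen receptors that respond to IL-33 through its receptor chain ST2, encoded by Il1rl1. They depend on the regulators Id2 and Gata3 and release interleukin-5 and interleukin-13. Interleukin-5 supports eosinophils, and interleukin-13 acts through STAT6 on macrophages, fibroblasts and epithelium, where it induces alternative activation genes, eotaxins and matrix genes. Endometriosis is the growth of endometrial tissue outside the uterus, and the model used here places uterine tissue on the peritoneal wall.

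The deficient libraries held 30.3 to 43.0 M counts and the Cre-control libraries 31.8 to 44.1 M counts (M, mega). Levels are given as CPM (TMM-scaled counts per M counts of the library), for replicates 1 to 4 in that order. In 1 library of each group the liver gene Alb (albumin) was abundant, at 14969 CPM in deficient replicate 2 and 38320 CPM in Cre-control replicate 3, against at most 0.881 CPM in the other deficient and 1.26 CPM in the other Cre-control libraries. Without both, 43 of the 75 described genes that were called kept their call, and the adjusted p or the count without them is given beside those that lost it. Uterine identity genes were present in all 8 libraries: Hoxa10 had 22.6 to 45.6 CPM in deficient and 21.9 to 58.6 CPM in Cre-control lesions, and the estrogen receptor gene Esr1 212 to 388 CPM in deficient and 143 to 183 CPM in Cre-control lesions. Skeletal muscle genes took 1.44% to 12.2% of counts in deficient and 0.00872% to 7.89% in Cre-control lesions. In these bulk samples, fewer cells of a type and less RNA per cell cannot be told apart.

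The targeted gene was checked first. Id2, which restrains E-protein transcription factors and is needed for ILC development, had 58.1, 51.3, 38.3 and 44.9 CPM in deficient lesions, against 42.2, 42.6, 61.8 and 30.2 CPM in Cre controls. The groups overlapped, with a log2 fold change of 0.12 ± 0.26 (SE; adjusted p = 0.845, edgeR). Because the deletion is restricted to cells that use Nmur1, whole-lesion Id2 is no check of the labels. Nmur1, the neuromedin U receptor gene that drives the Cre, had 0.199, 0.306, 0 and 0.239 CPM in deficient lesions, against 0.884, 0.642, 0.622 and 1.67 CPM in Cre controls. All 4 deficient values lay below the Cre-control values, yet the log2 fold change of -2.34 ± 0.91 did not pass the test (adjusted p = 0.136, edgeR). The 0 in deficient replicate 3 allows up to 0.0801 CPM (3 counts).

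Across 21249 genes, 813 (3.83%) differed at an adjusted p of 0.05 (edgeR quasi-likelihood test, Benjamini-Hochberg over all genes). Of these, 346 (1.63%) were higher and 467 (2.2%) lower in deficient lesions. The 4 deficient values lay wholly above the 4 Cre-control values for 4.91% of all genes and wholly below for 6.83%, and these shares are the background for the counts given next. The number of genes called depended on single libraries: it was 309 without deficient replicate 2, 202 without deficient replicate 4, 344 without Cre-control replicate 1, 310 without Cre-control replicate 2 and 501 without Cre-control replicate 3. Without both libraries that held liver RNA, 180 genes were called, of which 173 were among the 813. With only the 8 compared libraries fitted, 132 genes were called, of which 117 were among the 813. Of the described genes called in the main fit, 71 had a value there and 31 kept their call. Il1rl1 (adjusted p = 0.0903, edgeR), Loxl3 (0.0616), Asns (0.0583), Slc7a2 (0.0536) and Trib3 (0.053) were among those that lost it. The share of called genes that were higher, 42.6%, was 58.6% without deficient replicate 2 and 52.9% without deficient replicate 3.

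The ILC2 cytokines were nearly absent from deficient lesions. Il13 had 0.0443, 0.0306, 0.0534 and 0.0869 CPM in deficient lesions, against 2.21, 3.56, 2.71 and 1.55 CPM in Cre controls. The lowest Cre-control value exceeded the highest deficient value many times over, and the log2 fold change was -5.44 ± 0.62 (adjusted p = 2.84e-06, edgeR), from 9 reads in all deficient libraries and 397 in all Cre-control libraries. Il5 had 0.0664, 0.0613, 0 and 0.0217 CPM in deficient lesions, against 1.33, 1.78, 0.945 and 0.788 CPM in Cre controls. Again no value overlapped, and the log2 fold change was -4.92 ± 0.58 (adjusted p = 4.33e-06, edgeR; 6 reads against 190). Both calls held in each alternative that could be fitted apart from a replicate block. The genes of the other ILC2 cytokines Il4, Il9, Csf2 and Areg were not analysed here.

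Receptors and regulators of ILC2s were lower by smaller factors. Il1rl1 had 14.5, 7.94, 8.94 and 7.67 CPM in deficient lesions, against 69.7, 109, 19.9 and 27.6 CPM in Cre controls. The Cre controls spread widely, with replicates 3 and 4 nearest to the deficient lesions, but no value overlapped, and the gene fell (log2 fold change -2.53 ± 0.44, adjusted p = 0.00117, edgeR). Gata3, which directs the type 2 programme in ILC2s and T helper cells, had 2.41, 1.56, 2.16 and 2.65 CPM in deficient lesions, against 8.72, 8.77, 6.22 and 7.39 CPM in Cre controls. The levels were even within each group, and the log2 fold change was -1.82 ± 0.39 (adjusted p = 0.00917, edgeR; 0.0587 without both liver-containing libraries).

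Il2ra, the high-affinity interleukin-2 receptor chain of ILC2s and regulatory T cells, had 3.70, 1.16, 4.94 and 3.02 CPM in deficient lesions, against 17.7, 22.9, 14.1 and 17.01 CPM in Cre controls (log2 fold change -2.48 ± 0.44, adjusted p = 0.00138, edgeR). Il9r, the interleukin-9 receptor, had 0.797, 0.827, 0.641 and 0.934 CPM in deficient lesions, against 3.83, 3.06, 2.46 and 2.57 CPM in Cre controls (-1.89 ± 0.35, adjusted p = 0.0019). Crlf2, a receptor chain for the alarmin TSLP, fell by 1.01 on the log2 scale (adjusted p = 0.0132), a call that was lost without deficient replicate 2 (adjusted p = 0.0641) or deficient replicate 4 (0.063). The alarmin itself did not separate the groups: Il33 had 53.2, 29.6, 32.6 and 45.9 CPM in deficient lesions and 50.1, 41.5, 23.4 and 34.0 CPM in Cre controls (0.11 ± 0.43, adjusted p = 0.919).

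The ILC2 list had 34 measured members, of which 7 fell and none rose, and the deficient values lay wholly below the Cre controls for 15. The list's median log2 fold change was -0.54, beside -0.02 over all genes tested. Members that were not called included Rora, Icos, Thy1 and Kit, which are shared with other lymphoid or stromal cells. The called genes Gata3 and Il2ra are also shared, with T helper and regulatory T cells. Klrg1 and Il17rb, which were described as well, were not called. Lymphoid markers outside the list gave no call: none of 17 T cell, 12 NK and cytotoxic or 16 B and plasma cell genes passed the test, while B and plasma cell genes took 0.0373% to 0.0943% of counts in deficient and 0.0499% to 0.432% in Cre-control lesions. Cd4 was higher in each deficient library without passing the test, with 7.20, 3.92, 6.67 and 4.43 CPM in deficient lesions, against 1.65, 1.70, 1.96 and 1.37 CPM in Cre controls (1.73 ± 0.59, adjusted p = 0.0869).

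**Figure D1:**
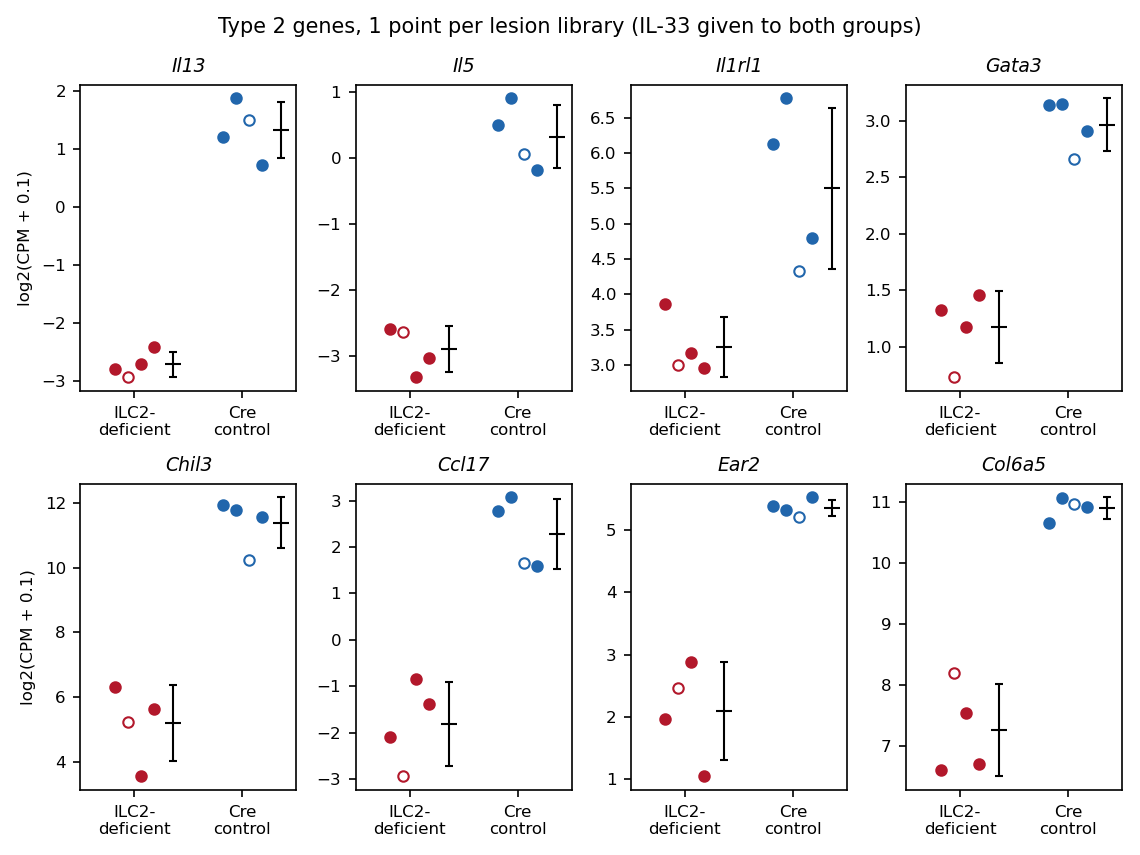
Levels of 8 type 2 genes on a log2(CPM + 0.1) axis, with 1 point per library, deficient lesions left and Cre controls right, bars giving the mean ± SD of the 4 libraries and open symbols the 2 libraries that held liver RNA. In each panel all 4 deficient points lie below all 4 Cre-control points, as for Chil3, whose deficient values end at 79.3 CPM while the Cre controls begin at 1198 CPM.

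The genes that interleukin-13 is known to induce in macrophages were among the largest falls. Chil3, a chitinase-like lectin secreted by alternatively activated macrophages, had 79.3, 37.3, 11.6 and 49.8 CPM in deficient lesions, against 3946, 3549, 1198 and 3020 CPM in Cre controls. The groups lay far apart, with a log2 fold change of -6.04 ± 1.11 (adjusted p = 0.00179, edgeR). Its close relative Chil4 showed the same order, with 3.36 to 42.4 CPM in deficient and 86.3 to 626 CPM in Cre-control lesions, but did not pass the test (adjusted p = 0.152). Reads can be shared or lost between near-identical copies, so the split between these 2 genes is uncertain.

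Retnla, a secreted product of alternatively activated macrophages, had 54.4, 58.0, 108 and 19.2 CPM in deficient lesions, against 667, 1046, 389 and 893 CPM in Cre controls (log2 fold change -3.64 ± 0.84, adjusted p = 0.0143, edgeR). The groups were well apart, although the call was lost without both liver-containing libraries (adjusted p = 0.0615), without deficient replicate 2 (0.0501) or without deficient replicate 4 (0.0673). Slc7a2, the arginine transporter of activated macrophages, had 162, 248, 125 and 124 CPM in deficient lesions, against 1059, 1242, 624 and 422 CPM in Cre controls (-2.35 ± 0.42, adjusted p = 0.0015). Arg1, which breaks arginine down, had 140, 202, 69.2 and 212 CPM in deficient lesions, against 749, 1048, 612 and 284 CPM in Cre controls, again without overlap but with an adjusted p of 0.069 (-2.11 ± 0.68).

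Chemokines of type 2 inflammation were lower as well. Ccl17, a ligand of CCR4 on T helper cells, had 0.133, 0.0306, 0.454 and 0.282 CPM in deficient lesions, against 6.75, 8.28, 3.06 and 2.93 CPM in Cre controls (log2 fold change -4.52 ± 0.66, adjusted p = 0.000105, edgeR). Ccl24, an eotaxin that attracts eosinophils, had 3.96, 2.76, 4.64 and 3.45 CPM in deficient lesions, against 32.9, 38.98, 22.1 and 12.2 CPM in Cre controls (-2.84 ± 0.50, adjusted p = 0.00113). Neither gene overlapped between the groups. A second eotaxin, Ccl11, fell by 1.21 (adjusted p = 0.0422), and the CCR4 ligand Ccl22 fell by 1.56 (adjusted p = 0.0473) on the log2 scale. These 2 calls were the least stable of the group: Ccl11 lost its call without any of deficient replicates 1, 2 and 4 or Cre-control replicates 1, 2 and 4, and Ccl22 lost it without any single one of the 8 libraries, with adjusted p up to 0.129 for Ccl11 and 0.149 for Ccl22. The adjusted p without both liver-containing libraries was 0.125 for Ccl11 and 0.162 for Ccl22.

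Of 37 measured members of the type 2 effector list, 12 fell and none rose, and the deficient values lay wholly below the Cre controls for 18. The median log2 fold change was -0.98. The further members that fell were Pdcd1lg2, an inhibitory ligand on alternatively activated macrophages (-2.70), Mgl2, a macrophage lectin (-2.47), Il13ra2, the decoy receptor for interleukin-13 (-1.998), Dcstamp, a cell fusion protein (-1.40), and Cish, a feedback inhibitor of STAT signalling (-1.20). Mgl2 lost its call without deficient replicate 4 or Cre-control replicate 2, and Il13ra2 without deficient replicate 1 or 2, Cre-control replicate 2 or both liver-containing libraries (adjusted p = 0.125). The receptor chain Il4ra had 175 to 358 CPM in deficient and 129 to 228 CPM in Cre-control lesions and was not called (0.46 ± 0.26, adjusted p = 0.34). The number of members that fell was 6 without both liver-containing libraries, 5 without deficient replicate 2, 5 without deficient replicate 4 and 6 without Cre-control replicate 2. Macrophage and monocyte markers as a whole moved less: of 25, Chil3 fell and Cx3cr1, a chemokine receptor of monocyte-derived macrophages, rose, with 20.2, 14.9, 24.7 and 23.4 CPM in deficient lesions, against 9.31, 5.46, 11.9 and 8.40 CPM in Cre controls (1.24 ± 0.31, adjusted p = 0.0226; 0.0538 to 0.0888 without deficient replicate 4 or Cre-control replicate 1 or 2). The 25 markers together took 0.651% to 1.08% of counts in deficient and 0.899% to 1.46% in Cre-control lesions, and their part in the type 2 result was not tested.

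The promoters of 3 genes that fell are shown, each of which held a match to a motif given below. Each is the RefSeq promoter of build GRCm38.p6, from 250 bases before to 50 bases after the annotated start, 5′ to 3′ on the strand of the gene: Il13 at chr11:53634653-53634952 (minus strand), Ccl17 at chr8:94810203-94810502 (plus strand) and Retnla at chr16:48842359-48842658 (plus strand). Capitals mark matches to AGATAA, the core bound by GATA factors (TTATCT where the match is on the opposite strand), and to TTCNNNNGAA, the spacing preferred by STAT6, which reads alike on both strands.
Il13: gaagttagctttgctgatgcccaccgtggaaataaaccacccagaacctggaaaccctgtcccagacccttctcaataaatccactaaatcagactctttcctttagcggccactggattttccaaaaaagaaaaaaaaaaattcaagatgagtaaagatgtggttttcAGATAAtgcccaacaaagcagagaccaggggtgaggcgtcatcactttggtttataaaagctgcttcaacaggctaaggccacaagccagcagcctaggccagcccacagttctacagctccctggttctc
Ccl17: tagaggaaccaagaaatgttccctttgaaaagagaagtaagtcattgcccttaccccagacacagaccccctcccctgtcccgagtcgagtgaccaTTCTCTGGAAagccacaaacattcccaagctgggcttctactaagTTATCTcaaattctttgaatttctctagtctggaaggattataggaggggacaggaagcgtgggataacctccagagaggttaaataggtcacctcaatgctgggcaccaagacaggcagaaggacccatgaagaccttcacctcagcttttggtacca
Retnla: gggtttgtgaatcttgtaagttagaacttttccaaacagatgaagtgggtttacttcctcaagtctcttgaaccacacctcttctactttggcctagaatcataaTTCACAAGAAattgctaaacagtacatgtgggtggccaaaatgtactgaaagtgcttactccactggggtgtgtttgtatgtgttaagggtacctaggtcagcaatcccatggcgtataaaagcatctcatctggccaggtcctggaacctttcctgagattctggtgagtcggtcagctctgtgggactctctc
The match in Il13 begins 81 bases before the start, those in Ccl17 begin at bases 97 (STAT6-type) and 142 (GATA) of the 300 bases shown, and that in Retnla 145 bases before it. AGATAA occurred in 7.50% and TTCNNNNGAA in 5.78% of the 17085 promoters of the genes tested, counting both strands. Among called members, AGATAA was held by 4 of 8 promoters of the ILC2 list and also by 4 of 8 of the type 2 list. TTCNNNNGAA was held by 0 of 8 promoters of the ILC2 list and 3 of 8 of the type 2 list. Among all measured members, AGATAA was held by 6 of 33 promoters of the ILC2 list and 4 of 26 of the type 2 list. For TTCNNNNGAA these counts were 2 of 33 and 6 of 26. The promoters of Il5, Col6a5 and Ear2 held neither. These matches are a description of the letters only.

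Eosinophil ribonucleases fell with the eotaxins. Ear2 had 3.83, 5.42, 7.29 and 1.98 CPM in deficient lesions, against 41.4, 39.9, 36.7 and 45.7 CPM in Cre controls. The Cre controls were close to each other and far above all deficient lesions (log2 fold change -3.15 ± 0.39, adjusted p = 1.04e-05, edgeR). Rnase2a had 1.13, 4.78, 2.08 and 2.39 CPM in deficient lesions, against 80.9, 91.7, 49.9 and 49.1 CPM in Cre controls (-4.71 ± 0.83, adjusted p = 0.00124). Both belong to a family of near-identical genes, between which reads can be misassigned, and macrophages also use such genes. The surface marker Siglecf had 3.43, 3.00, 1.63 and 2.80 CPM in deficient lesions, against 7.51, 4.10, 4.23 and 6.98 CPM in Cre controls, without overlap and without passing the test (-1.07 ± 0.35, adjusted p = 0.0734). The interleukin-5 receptor chain Il5ra did not separate the groups, with 0.332 to 2.48 CPM in deficient and 0.383 to 2.27 CPM in Cre-control lesions. In all, 4 of 12 measured eosinophil genes fell and none rose. The deficient values lay wholly below the Cre controls for 5 of the 12 and wholly above for 1. A positive log2 fold change was seen for 3 of the 12. The other members that fell were Csf2rb and Csf2rb2, shared receptor chains of interleukin-5 and related cytokines. Their calls were lost without deficient replicate 2, 3 or 4 or without Cre-control replicate 1 or 2, which leaves 2 members called in each case. Without both liver-containing libraries their adjusted p was 0.122 for Csf2rb and 0.0836 for Csf2rb2.

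Matrix genes moved in both directions. Col6a5, a collagen VI chain, had 97.5, 293, 187 and 104.2 CPM in deficient lesions, against 1618, 2137, 2012 and 1940 CPM in Cre controls (log2 fold change -3.50 ± 0.53, adjusted p = 0.000202, edgeR). It stood alone among the collagen VI chains, since Col6a3 rose (0.91 ± 0.26, adjusted p = 0.0439) and Col6a1, Col6a2, Col6a4 and Col6a6 were not called. Thbs2, a matricellular protein that limits vessel growth, had 660, 393, 910 and 597 CPM in deficient lesions, against 225, 143, 235 and 242 CPM in Cre controls (1.60 ± 0.34, adjusted p = 0.00814). Every deficient lesion was above every Cre control. Eln, which encodes elastin, had 539, 465, 572 and 320 CPM in deficient lesions, against 136, 162, 159 and 226 CPM in Cre controls (1.47 ± 0.39, adjusted p = 0.0307). Col8a1 (1.91) and Col12a1 (1.42) also rose, so that 5 of 28 measured collagen and matrix genes rose and 1 fell. The main fibrillar collagens were not called, with log2 fold changes of 0.05 ± 0.27 for Col1a1 and 0.06 ± 0.23 for Col3a1. The number that rose was 1 without Cre-control replicate 2 and 3 without any other single library, and 3 without both liver-containing libraries; Thbs2 and Col6a5 were called each time.

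Among 27 enzymes of matrix remodelling, 3 fell and none rose. Loxl3, a lysyl oxidase that crosslinks collagen, had 39.3, 32.2, 42.2 and 28.5 CPM in deficient lesions, against 150, 188, 134.6 and 56.2 CPM in Cre controls (log2 fold change -1.89 ± 0.34, adjusted p = 0.00139, edgeR). The groups did not overlap, although Cre-control replicate 4 lay much nearer to the deficient lesions than the others. The macrophage elastase Mmp12 (-1.54) and the collagenase Mmp13 (-2.64) overlapped between the groups and lost their calls without deficient replicate 2, 3 or 4 or without Cre-control replicate 1 or 2, which left Loxl3 alone. Without both liver-containing libraries their adjusted p was 0.0883 for Mmp12 and 0.11 for Mmp13, again leaving Loxl3.

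Genes of the amino acid stress response were lower in deficient lesions. This response is run by the transcription factor ATF4, which induces enzymes of asparagine, serine and folate metabolism when amino acids are short or protein synthesis is stressed. Asns, asparagine synthetase, had 13.2, 13.3, 11.1 and 18.2 CPM in deficient lesions, against 55.5, 63.6, 29.8 and 28.2 CPM in Cre controls (log2 fold change -1.67 ± 0.32, adjusted p = 0.00258, edgeR). Cre-control replicates 1 and 2 were well above replicates 3 and 4, and all lay above the deficient lesions. Trib3, a pseudokinase induced by ATF4, had 3.41, 3.03, 2.40 and 4.41 CPM in deficient lesions, against 15.6, 26.3, 10.6 and 8.38 CPM in Cre controls (-2.20 ± 0.40, adjusted p = 0.00163). Phgdh, the first enzyme of serine synthesis, had 12.3, 11.3, 13.8 and 10.99 CPM in deficient lesions, against 39.2, 54.5, 26.6 and 25.1 CPM in Cre controls (-1.59 ± 0.34, adjusted p = 0.00843). Of 18 measured members 9 fell and none rose, 10 lay wholly below the Cre controls and 17 had a negative log2 fold change, with a median of -0.98. The other members that fell were the mitochondrial folate enzymes Aldh1l2 and Mthfd2, the amino acid transporter chain Slc3a2, the stress sensor Sesn2, and Atf4 and Ddit3 themselves, the last 2 by 0.66 and 0.63 on the log2 scale. Without both liver-containing libraries 5 members fell, and without Cre-control replicate 2 also 5.

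**Figure D2:**
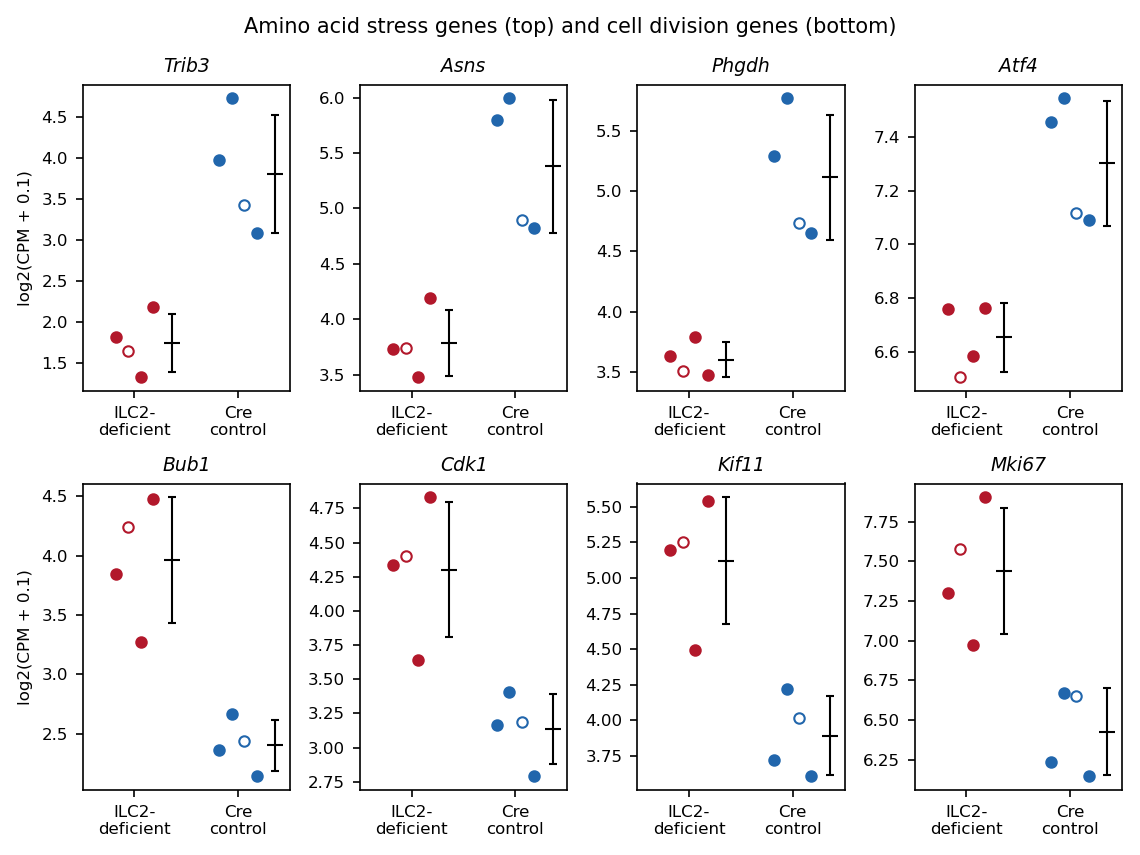
Levels of 4 amino acid stress genes (top) and 4 cell division genes (bottom) on a log2(CPM + 0.1) axis, with 1 point per library, deficient lesions left and Cre controls right, bars giving mean ± SD and open symbols the 2 libraries that held liver RNA. The stress genes lie lower and the division genes higher in all 4 deficient lesions, with deficient replicate 3 nearest to the Cre controls for the division genes.

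Cell division genes were higher in deficient lesions. Bub1, a spindle checkpoint kinase, had 14.3, 18.8, 9.56 and 22.2 CPM in deficient lesions, against 5.04, 6.25, 5.32 and 4.32 CPM in Cre controls (log2 fold change 1.63 ± 0.36, adjusted p = 0.0111, edgeR). Mki67, the marker of cycling cells, had 157.6, 191, 125 and 239 CPM in deficient lesions, against 75.4, 102, 101 and 70.8 CPM in Cre controls (1.03 ± 0.30, adjusted p = 0.0493). Neither gene overlapped between the groups, and deficient replicate 3 was the lowest and replicate 4 the highest deficient lesion for both. Without deficient replicate 4 neither passed, with adjusted p = 0.056 for Bub1 and 0.172 for Mki67, and Mki67 kept its call without 1 single library, deficient replicate 3. Of 25 measured genes 15 rose and none fell, 24 had a positive log2 fold change, and the median was 1.14. The members that rose act mainly in mitosis, among them the cyclins Ccna2, Ccnb1 and Ccnb2, the kinases Cdk1, Aurka and Plk1 and the motors Kif11, Kif20a and Cenpe. The replication genes Pcna, Mcm2 and Mcm5 were not called. None of the 25 was called without both liver-containing libraries (adjusted p = 0.0813 for Bub1 and 0.151 for Mki67), where the median was 1.17, nor without deficient replicate 4, where it was 0.98. The number was 2 without deficient replicate 2, 2 without Cre-control replicate 1, 8 without replicate 2, 7 without replicate 3 and 2 without replicate 4. Endometrial epithelium genes, of which none of 20 was called, took 0.232%, 0.127%, 0.0914% and 0.816% of counts in deficient lesions, against 0.0969%, 0.0507%, 0.296% and 0.138% in Cre controls. The 25 division genes took 0.0866%, 0.0981%, 0.0491% and 0.122% in deficient lesions, against 0.0405%, 0.0491%, 0.0421% and 0.0333% in Cre controls. Deficient replicate 4 was thus highest and replicate 3 lowest in both measures, and the part of epithelium in the division genes was not tested.

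The promoter of Cdk1 is shown as that of a division gene that rose and whose promoter held the motif below. It lies at chr10:69352863-69353162 (minus strand, GRCm38.p6, RefSeq), and capitals mark matches to TTTGAA, the cell cycle homology element, searched on both strands.
Cdk1: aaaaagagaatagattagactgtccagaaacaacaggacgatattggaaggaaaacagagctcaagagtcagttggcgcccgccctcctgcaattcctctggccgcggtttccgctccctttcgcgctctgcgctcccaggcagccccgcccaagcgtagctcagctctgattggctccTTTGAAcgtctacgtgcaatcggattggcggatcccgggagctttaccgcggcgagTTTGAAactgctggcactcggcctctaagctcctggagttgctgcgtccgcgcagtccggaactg
The matches begin 71 and 15 bases before the start. TTTGAA was present in 8 of 12 promoters of the called division genes and in 10 of 20 of all measured division genes. It was present in 13.3% of the 17085 promoters of genes tested. The promoters of Bub1 and Ccnb1 held none.

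**Figure D3:**
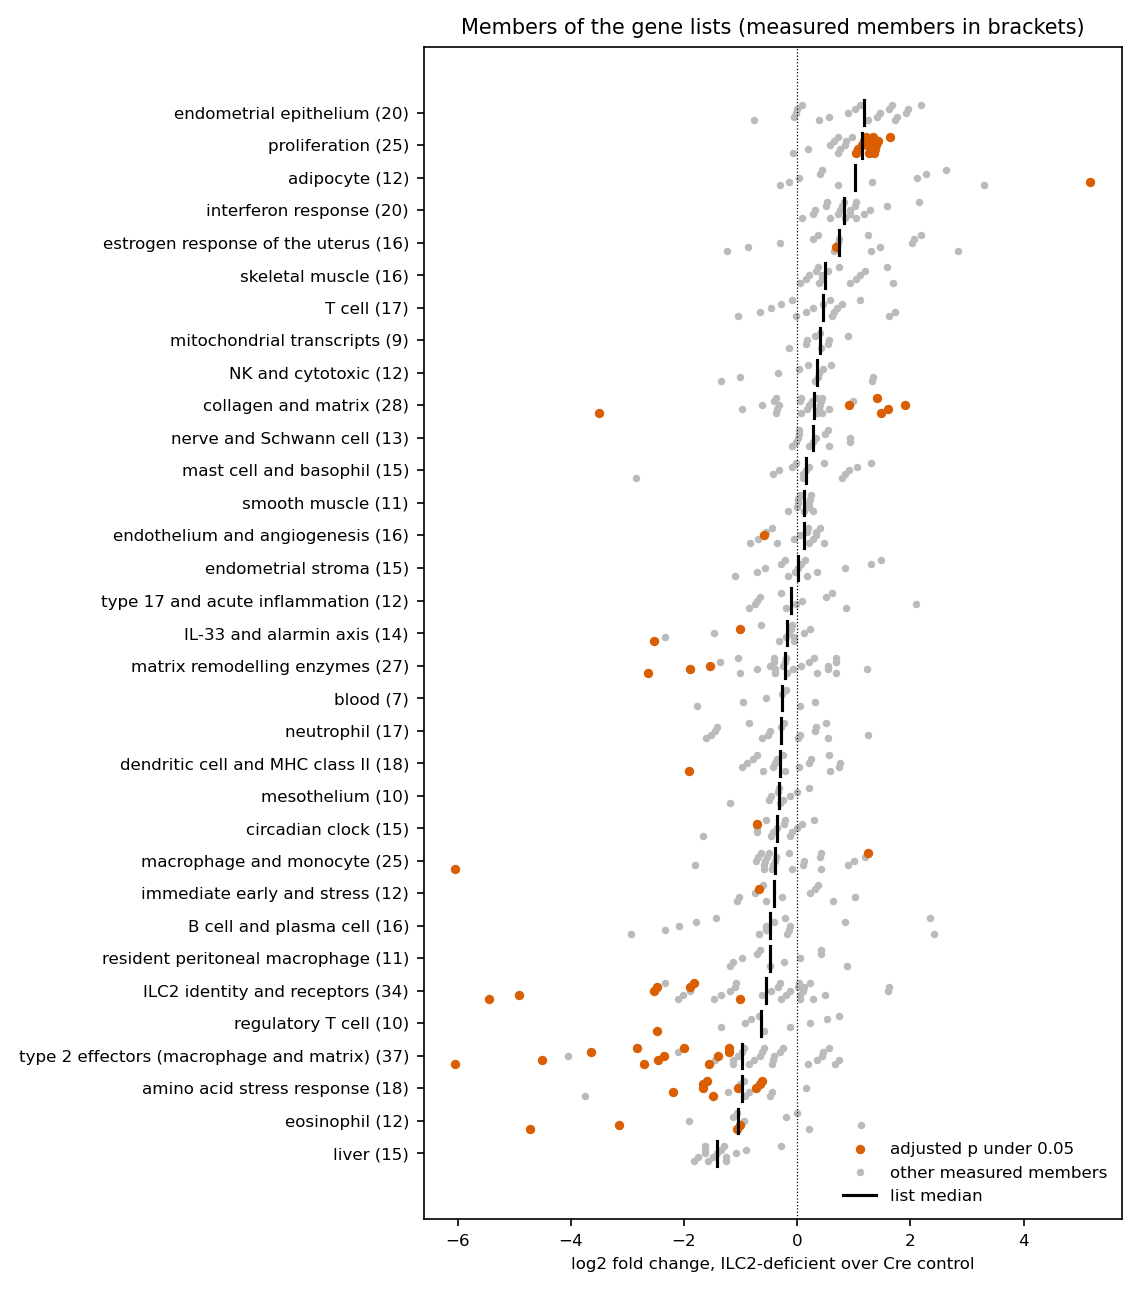
Log2 fold change (deficient over Cre control) of each measured member of the 33 gene lists, with members that passed an adjusted p of 0.05 in orange, the others in grey and the list median as a black line. Type 2, eosinophil and amino acid stress genes extend to the left and division genes to the right; the liver list had a median of -1.42, which ran between -11.4 and 11.6 with 1 library left out, and no member called.

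Most other lists gave few or no calls. All 20 interferon response genes had a positive log2 fold change (median 0.83) and none passed the test. Together they took 0.0383% to 0.105% of counts in deficient and 0.0243% to 0.0409% in Cre-control lesions, with deficient replicate 4 the highest. No member was called of the lists for neutrophils, mast cells and basophils, resident peritoneal macrophages, endometrial stroma, smooth muscle, skeletal muscle, mesothelium, nerve, blood, type 17 inflammation or mitochondrial transcripts. Single members were called elsewhere. Batf3, a transcription factor of type 1 dendritic cells, had 3.76, 2.36, 2.54 and 2.15 CPM in deficient lesions, against 9.93, 13.2, 7.61 and 10.1 CPM in Cre controls (log2 fold change -1.91 ± 0.32, adjusted p = 0.000746, edgeR). It was the 1 called gene of 18 dendritic cell and antigen presentation genes, and it was called in each alternative apart from the replicate block. Ctnnal1 of the estrogen list rose by 0.68 ± 0.15 (adjusted p = 0.00857, and 0.0521 without deficient replicate 4). Greb1, the canonical estrogen receptor target, had 70.8, 88.4, 45.1 and 146.5 CPM in deficient lesions, against 28.2, 17.8, 18.3 and 19.3 CPM in Cre controls. It did not pass (2.07 ± 0.65, adjusted p = 0.0616). Greb1 lies 8.36 Mb from Id2. In floxed controls (Id2fl/fl without Cre) relative to wild type, its log2 fold change was 1.06 (adjusted p = 0.304, edgeR). Lep, which encodes the fat hormone leptin, was called (5.18 ± 1.52, adjusted p = 0.0486), yet it had 40.8 CPM in deficient replicate 3 and at most 0.919 CPM in the other deficient lesions, against 0.0247 to 0.572 CPM in Cre controls, and without that library its adjusted p was 0.785. Deficient replicate 1 was the 1 library whose removal kept the call, and without both liver-containing libraries the adjusted p was 0.103. The immediate early gene Jun, the clock gene Per3 and the vascular growth factor receptor gene Flt1 fell by 0.67, 0.70 and 0.58 on the log2 scale, and all 3 lost their calls without deficient replicate 2 or 4 or Cre-control replicate 1 or 2. The adjusted p without both liver-containing libraries was 0.143 for Jun, 0.13 for Per3 and 0.124 for Flt1.

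Among the genes with the largest rises was Oxtr, the oxytocin receptor of uterine muscle, with 62.2, 101, 10.7 and 125.8 CPM in deficient lesions, against 8.31, 2.94, 4.80 and 8.20 CPM in Cre controls (log2 fold change 3.63 ± 0.94, adjusted p = 0.0279, edgeR). Lgr6, a receptor of epithelial and muscle progenitors, had 23.9, 77.1, 5.23 and 50.1 CPM in deficient lesions, against 2.95, 1.63, 3.28 and 3.92 CPM in Cre controls (3.73 ± 0.98, adjusted p = 0.0292). In both genes deficient replicate 3 was close to the Cre controls, and both calls were lost without deficient replicate 2 or 4 or without Cre-control replicate 1, 2 or 3. With both liver-containing libraries left out, the adjusted p was 0.143 for Oxtr and 0.164 for Lgr6. Olfm4, a secreted glycoprotein of endometrial epithelium, had 4.12, 2.14, 4.88 and 14.2 CPM in deficient lesions, against 1.68, 0.865, 1.62 and 1.22 CPM in Cre controls (2.24 ± 0.59, adjusted p = 0.0297). Its call was lost without deficient replicate 4 (adjusted p = 0.19), any single Cre control or both liver-containing libraries (0.0562). Smooth muscle genes took 0.317% to 0.795% of counts in deficient and 0.290% to 0.720% in Cre-control lesions, and their part in these rises was not tested.

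Glycam1, a mucin-like ligand known from lymph node vessels and mammary gland, had 1.35, 0.674, 1.12 and 1.74 CPM in deficient lesions, against 0.177, 0.222, 0.0995 and 0.135 CPM in Cre controls (log2 fold change 2.93 ± 0.57, adjusted p = 0.00317, edgeR). The groups were clearly apart, and the call held in each alternative that could be fitted apart from the replicate block. Ccn5, a growth-restraining matricellular protein, had 26.0, 8.95, 29.0 and 19.1 CPM in deficient lesions, against 3.60, 1.26, 3.70 and 6.76 CPM in Cre controls (2.44 ± 0.63, adjusted p = 0.0269; 0.0516 to 0.0924 without deficient replicate 3 or 4 or Cre-control replicate 1, 2 or 3, and 0.0763 without both liver-containing libraries).

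The other 5 of the 10 largest rises outside predicted genes either leaned on 1 deficient library or also rose in floxed controls relative to wild type. Kera, a proteoglycan of cornea and connective tissue, had 65 reads in all deficient libraries and 3 in all Cre-control libraries, a ratio of 21.4 with a 95% counting interval of 6.99 to 106. Deficient replicate 3 held most of them at 1.15 CPM, against 0.0652 to 0.306 CPM in the other deficient lesions. Without that library the log2 fold change was 3.13 (adjusted p = 0.147), against 4.31 with it, and the call was also lost without deficient replicate 2 or any single Cre control (0.0639 to 0.0973) and without both liver-containing libraries (0.146). Nexmif was highest in deficient replicate 4 at 31.2 CPM, and its log2 fold change of 2.95 was 1.9 without that library (adjusted p = 0.209). Its call was also lost without any single Cre control and without both liver-containing libraries (0.102). The transcription factor gene Tfap2a was highest in deficient replicate 3, and its log2 fold change of 2.29 was 1.54 without that library (adjusted p = 0.16); the call was also lost without deficient replicate 4, Cre-control replicate 2, 3 or 4 (0.071 to 0.0929) or both liver-containing libraries (0.0815). The pseudogenes Ncoa4-ps (4.30) and Rps7-ps3 (2.38) kept their calls without any single library. Both also rose in floxed controls relative to wild type, groups that are both ILC2-competent, by 4.17 (adjusted p = 0.00475) and 2.88 (adjusted p = 1.93e-09) on the log2 scale.

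The largest falls outside the type 2 genes included Ighv6-3, an immunoglobulin variable segment, with 2.08, 1.19, 0.374 and 0.999 CPM in deficient lesions, against 2.30, 228, 6.34 and 471 CPM in Cre controls (log2 fold change -7.24 ± 1.60, adjusted p = 0.0106, edgeR). Cre-control replicates 2 and 4 carried nearly all of its reads, and Cre-control replicate 1 was close to deficient replicate 1. Car6, a secreted carbonic anhydrase, had 0.155, 0.0919, 0.240 and 0.369 CPM in deficient lesions, against 5.27, 7.02, 1.82 and 3.06 CPM in Cre controls (-4.29 ± 0.85, adjusted p = 0.00402). The homeobox gene Msx3 had 0.177, 0.0613, 0.0267 and 0.0217 CPM in deficient lesions, against 4.07, 7.51, 1.44 and 0.923 CPM in Cre controls (-5.52 ± 1.18, adjusted p = 0.00929). Capn11, a calpain protease, fell by 4.06 on the log2 scale (adjusted p = 0.0265). Ighv6-3, Msx3 and Capn11 lost their calls without deficient replicate 4, with adjusted p of 0.0522, 0.0519 and 0.0991, and Capn11 also without deficient replicate 1 or 2, Cre-control replicate 2 or both liver-containing libraries (0.103). The cadherin gene Cdhr3 had 3 reads in deficient and 77 in Cre-control libraries, a ratio of Cre control over deficient of 26.0 with a 95% counting interval of 8.58 to 129. Cdhr3 lies 7.97 Mb from Id2, and in floxed controls relative to wild type its log2 fold change was -4.78 (adjusted p = 0.00676). Its call was lost without deficient replicate 1, 2 or 4 or Cre-control replicate 2 (adjusted p = 0.0593 to 0.0948) and without both liver-containing libraries (0.0763).

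Genes near Id2 were called more often than others. Id2 lies on chromosome 12 at 25093799 to 25097140 (GRCm38, minus strand). Within 5 Mb of it, 17 of 55 tested genes were called (30.9%), 9 higher and 8 lower in deficient lesions. Within 20 Mb the share was 18.5%, on the rest of chromosome 12 it was 4.18%, and on all other chromosomes 3.70%. Without both liver-containing libraries 12 of the 17 remained called; Gm10478, Gm30124, Gm48667, Trappc12 and Zfp125 did not, with adjusted p of 0.0549 to 0.288. Of the 17 called genes 10 were pseudogenes and 3 were protein-coding. The deficient mice carry floxed Id2 alleles and the Cre controls do not, and chromosome 12 sequence inherited with those alleles cannot be told apart from an effect of ILC2 loss in this comparison.

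**Figure D4:**
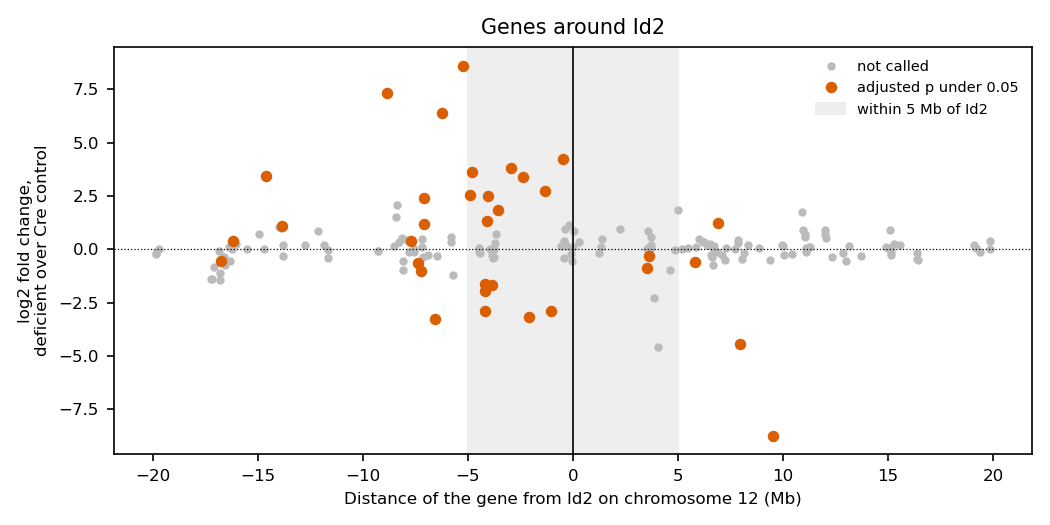
Log2 fold change (deficient over Cre control) of genes on chromosome 12 against their distance from Id2 in megabases, with genes past an adjusted p of 0.05 in orange and the 5 Mb window shaded. Called genes crowd around Id2 in both directions, 9 higher and 8 lower within the window.

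Gm6969, a processed pseudogene 0.457 Mb from Id2, had 18.2, 18.0, 20.8 and 22.7 CPM in deficient lesions, against 0.737, 0.667, 1.74 and 1.10 CPM in Cre controls (log2 fold change 4.22 ± 0.35, adjusted p = 4.49e-09, edgeR). It had the smallest adjusted p of the 17. Rps7, a ribosomal protein gene 3.54 Mb from Id2, had 57.8, 56.5, 58.9 and 81.4 CPM in deficient lesions, against 117, 111, 120 and 117 CPM in Cre controls (-0.87 ± 0.16, adjusted p = 0.00138). Its pseudogene Rps7-ps3, for which no position was matched, went the other way, with 1.75, 2.08, 2.00 and 2.24 CPM in deficient lesions, against 0.442, 0.321, 0.448 and 0.338 CPM in Cre controls (2.38 ± 0.23, adjusted p = 5.62e-08). Reads can be shared between a gene and its processed copies. The non-coding gene 2410018L13Rik had 0.244, 0.184, 0.0801 and 0.130 CPM in deficient lesions, against 1.59, 1.66, 1.57 and 1.15 CPM in Cre controls (-3.20 ± 0.46, adjusted p = 8.94e-05).

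The same genes were examined in libraries that the comparison above did not use. Floxed controls (Id2fl/fl without Cre, n = 4) and wild-type C57Bl/6J mice (n = 4), both ILC2-competent and both given IL-33, are set apart by the floxed alleles and not by labelled ILC2 loss. The wild-type libraries carry another series of library names than the floxed ones, so a difference of cohort cannot be told apart from the alleles here. Between them 960 genes were called (4.52%), and the number was 442, 402 or 388 without floxed replicate 1, 2 or 4 and 506, 454 or 289 without wild-type replicate 1, 2 or 4. Of the 17 genes called near Id2, all 17 moved in the same direction in floxed controls relative to wild type and 13 were called. Gm6969 averaged 23.0 ± 2.16 CPM in floxed controls and 1.46 ± 0.146 CPM in wild type (SD, n = 4 each; log2 fold change 3.98 ± 0.35, adjusted p = 7.46e-09, edgeR). Rps7 averaged 57.8 ± 5.87 CPM in floxed controls and 111.9 ± 9.93 CPM in wild type (-0.95 ± 0.16, adjusted p = 0.000523). Alb was abundant in 1 of the wild-type libraries and in none of the floxed controls.

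Other described genes differed in how they behaved between floxed controls and wild type. Il13 averaged 0.928 ± 0.332 CPM in floxed controls and 1.11 ± 0.442 CPM in wild type (log2 fold change -0.26 ± 0.48, adjusted p = 0.785, edgeR), and Col6a5 averaged 1798 ± 363 CPM in floxed controls and 2028 ± 627 CPM in wild type (-0.17 ± 0.48, adjusted p = 0.861). Il2ra, in contrast, averaged 4.45 ± 1.52 CPM in floxed controls and 22.9 ± 10.2 CPM in wild type (-2.36 ± 0.44, adjusted p = 0.00248), so that ILC2-competent lesions with floxed alleles had it at about the level of deficient lesions. Ccl24 (-1.76, adjusted p = 0.0309) and Slc7a2 (-1.39, adjusted p = 0.0455) were also lower in floxed controls than in wild type. Besides the 17 near Id2, 58 described genes were called in deficient lesions against Cre controls; 7 of these 58 were called here, 6 in the same direction and Per3 in the opposite one. None of the 9 amino acid stress genes that fell in deficient lesions was called, although all 9 were lower in floxed controls, with a median of -0.38. Of the 15 division genes that rose, Birc5 was called and all 15 were higher in floxed controls, with a median of 0.78. Over all 813 genes, 59.2% had the same direction, beside 51.7% of all genes.

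The exchange of lesions between genotypes gave a further set of libraries that shares none with the main comparison. Cre-control fragments in deficient hosts (n = 4) were set against deficient fragments in Cre-control hosts (n = 4), all given IL-33. The fragment genotype thus has the opposite order to the labelled lesions of the main comparison. The host genotype has the same order only if recipients in the main comparison had the genotype of their lesions, which the labels do not state. The order of the fragments rests on the labels, which give the fragment's genotype. The library names of these 2 groups do not interleave, so a batch difference between them cannot be told apart from genotype. Here 214 genes were called (1.01%), 89 higher (0.419%) and 125 lower (0.588%) with deficient hosts. Of the 813 genes, 124 were called in both comparisons, all with the same sign, which is 15.3% of the 813 and 57.9% of the 214. In all, 783 of the 813 (96.3%) had the same sign, beside 67.2% of all genes. The number called fell to 54 without replicate 2 of deficient fragments in Cre-control hosts and to 66 without replicate 4 of that group.

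Type 2 genes were lower in deficient hosts. Il13 had a log2 fold change of -3.43 ± 0.55 (adjusted p = 0.00128, edgeR), Ear2 of -2.88 (adjusted p = 0.000254), Col6a5 of -3.87 (adjusted p = 0.000254) and Nmur1 of -4.42 (adjusted p = 0.0246) in deficient relative to Cre-control hosts. Of the type 2 list 8 members fell, of the ILC2 list 4, of the amino acid stress list 12, and of the division list 4 rose. Gata3 (-0.47, adjusted p = 0.638) and Il9r (-0.65, adjusted p = 0.409) did not pass the test in the exchanged lesions. Interferon response genes were called there, 6 of 20 higher in deficient hosts, with a median of 1.61. Gm6969 averaged 16.3 ± 5.11 CPM in Cre-control fragments in deficient hosts and 3.36 ± 2.18 CPM in deficient fragments in Cre-control hosts, so its level lay nearer to that of the host genotype than to that of the fragment. It was 1 of 2 genes among the 17 near Id2 that were called there, the other being Gm19196. The rest were not called, and their log2 fold changes were smaller than in the main comparison. Of the 17, 16 kept the direction of the main comparison, and Gm5977 (-0.02, against 2.49) did not. Small values were those of Gm9269 (0.43, against 3.61), 9030624G23Rik (-0.43, against -2.89) and 2410018L13Rik (-0.68, against -3.20). Larger ones were those of Gm20535 (-1.10, against -1.69), Gm4425 (1.28, against 3.81) and Gm38699 (1.12, against 2.73). How much of the RNA of these lesions came from the host was not tested.

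Adding 250000 ILC2s to deficient mice before IL-33 (n = 4) was set against added PBS (n = 4), again without shared libraries. No gene of the 21249 tested passed in edgeR, and DESeq2 called 14. Before adjustment 1849 of the 21249 genes had an edgeR p under 0.05. At that limit chance alone gives about 1 in 20 of all genes, so this count names no changed gene. Il13 averaged 0.190 ± 0.200 CPM with 250000 ILC2s and 0.134 ± 0.0964 CPM with added PBS, and Chil3 357 ± 558 CPM with 250000 ILC2s and 89.6 ± 40.0 CPM with added PBS. Both higher means rested on replicate 3 of the 250000 group, with 0.484 CPM of Il13 and 1191 CPM of Chil3. Without it, Il13 averaged 0.0922 ± 0.0493 CPM and Chil3 78.8 ± 50.9 CPM with 250000 ILC2s (n = 3), both below the mean with added PBS. Both stayed below the Cre-control range of the main comparison, with a highest Chil3 value of 1191 CPM with 250000 ILC2s and a lowest of 1198 CPM in Cre controls.

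**Figure D5:**
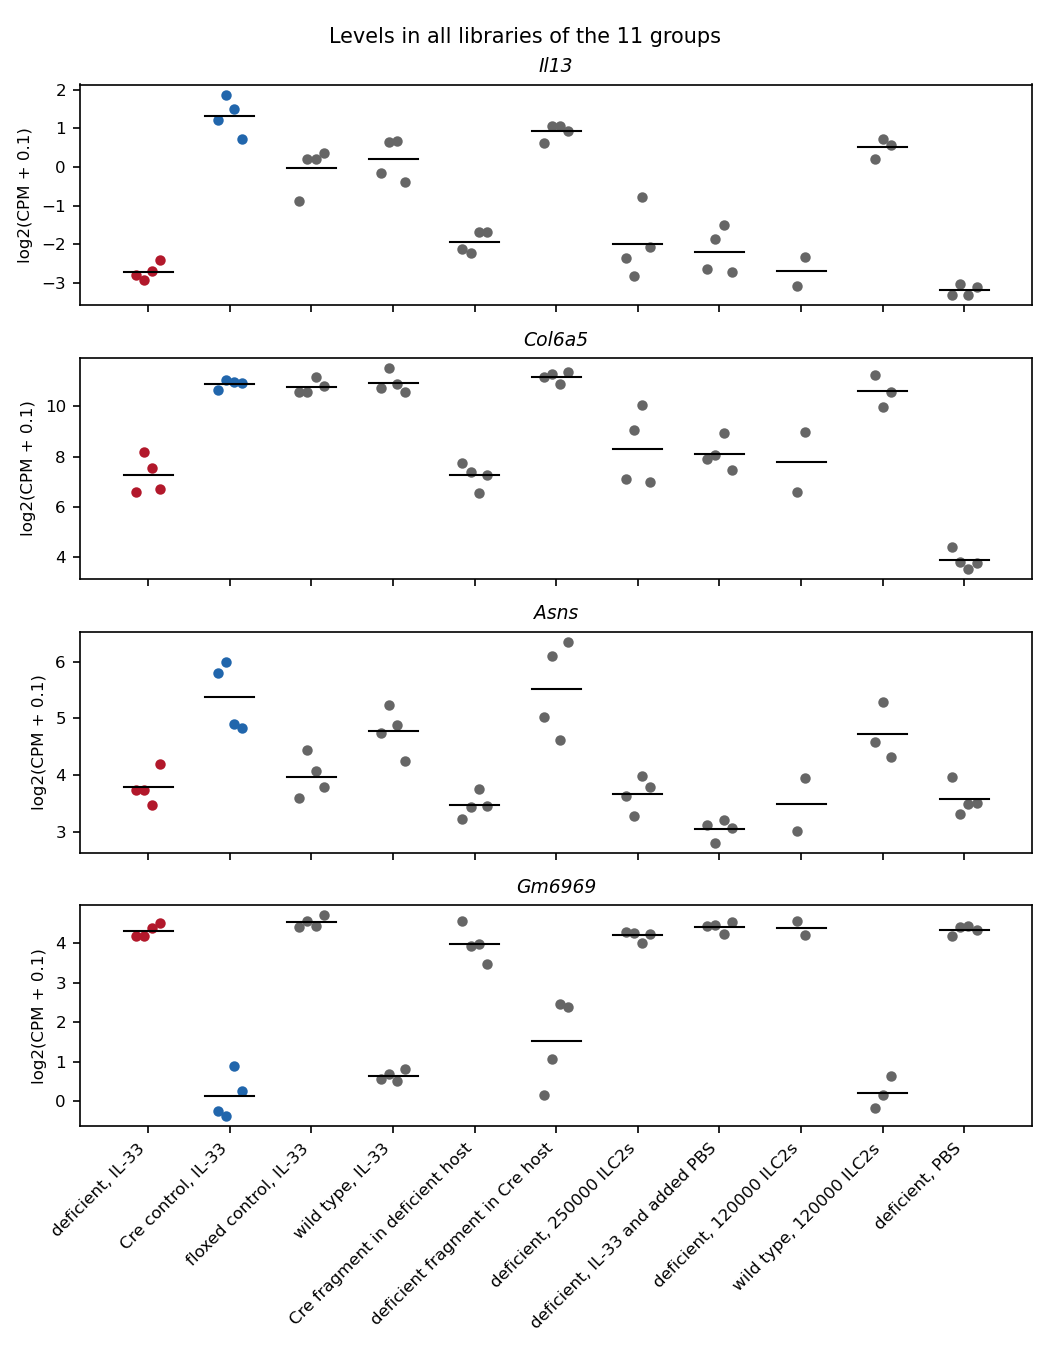
Levels of Il13, Col6a5, Asns and Gm6969 in all 41 libraries on a log2(CPM + 0.1) axis, with 1 point per library, a line at each group's mean, deficient lesions in red, Cre controls in blue and the other 9 groups in grey. Il13 and Col6a5 are high in the ILC2-competent groups and in deficient fragments in Cre-control hosts, Asns is lower in floxed than in Cre controls, and Gm6969 is high in each group labelled with floxed alleles other than deficient fragments in Cre-control hosts, and also in Cre-control fragments in deficient hosts.

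The choice of control mattered for some genes. Asns averaged 13.9 ± 3.04 CPM in deficient lesions, 44.3 ± 18.0 CPM in Cre controls, 16.0 ± 4.20 CPM in floxed controls and 28.1 ± 7.67 CPM in wild type. Floxed controls thus lay close to the deficient lesions and Cre controls were the highest of the competent groups. Il13 averaged 0.0538 CPM in deficient lesions, 2.51 CPM in Cre controls, 0.928 CPM in floxed controls and 1.11 CPM in wild type, and Bub1 averaged 16.2, 5.23, 5.17 and 3.45 CPM in the same groups. Relative to the mean of floxed controls and wild type, Cre controls differed in 18 genes (0.0847%). Of these, 14 were also called in deficient lesions against Cre controls. Both comparisons use the same Cre-control libraries, which favours shared calls, so this overlap is no independent support. The mean also joins floxed controls and wild type, which differed from each other in 960 genes (4.52%). Il13 was not among the 18 (1.30 ± 0.40, adjusted p = 0.429, edgeR), so a difference in Il13 between the competent groups was not resolved.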

How the data were processed

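Whole mouse lesions were sequenced as bulk RNA, extracted with a Norgen kit and made into NEBNext UltraExpress libraries, per the labels' protocols. The authors deposited 1 table of raw counts for 21249 genes in 41 libraries. The build was GRCm38 and the tools were Trimmomatic, STAR, HTSeq, limma and edgeR, per the submitters' processing notes; versions, annotation and strand setting are not given in the sources used here, so overlapping and antisense genes cannot be told apart. Summed over all 41 libraries, the lowest gene had 411 counts, so low genes are not in the table, by a filter the sources used here do not give.

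Sample titles and characteristics gave the groups. Counts were tested in R 4.3.3 with edgeR 4.0.16, using TMM scaling, a robust fit, a model of 11 group means over all 41 libraries, a two-sided quasi-likelihood F-test of deficient minus Cre control, and Benjamini-Hochberg adjustment over 21249 genes at 0.05. All groups share the estimate of spread because groups are small (biological coefficient of variation 0.465). Standard errors were derived as |log2 fold change|/√F. The test was also tried on simulated counts, drawn with the coefficient of variation that the main fit had estimated. The outcome of that trial is not given here. Gene lists are described by counts and medians, without a test. Alternatives were DESeq2 1.42.0, limma 3.58.1 (voom), other scalings and filters, the 8 libraries alone, a replicate block and single libraries left out. Fits without both libraries that held liver RNA follow the same model.

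The members and lists were chosen with earlier results of these data known. Genes described are a panel, the 10 largest rises and 10 largest falls among called genes without overlap outside predicted genes, up to 4 called members of each list by adjusted p (up to 2 members where none was called), and called genes within 5 Mb of Id2; further list members named beside a count were chosen after their values were seen, as was the comparison of floxed controls with wild type. The labels do not say whether replicate numbers pair the samples, so no block was used. The correlation of same-numbered deviations was 0.57, -0.60, -0.48 and 0.24 for replicates 1 to 4. Deficient replicate 2 and Cre-control replicate 3 held liver RNA, which enters the values of replicates 2 and 3. These correlations therefore cannot settle whether the samples are paired. No 2 libraries of a group matched as closely as counting noise allows (chi-square divided by its degrees of freedom was 71.3 to 741 within the 2 groups). Positions came from GENCODE M21 (GRCm38), where 20769 of 21249 symbols had a unique position. Promoters came from RefSeq (GRCm38.p6), matched by symbol for 13410 of the 21249 genes. Counting intervals are exact Poisson intervals and cover counting error only, as do the limits for counts of 0 (3 counts).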

Additional observations from a re-analysis of the deposited data

Results flagged for a closer look

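Among the 127 described genes, 12 of 254 pairs of a gene and a group (4.72%) had 1 library far from the other 3, where chance gives about 1 in 20. Of these 12, 5 concerned deficient replicate 4, which had 77.6 CPM of the interferon regulator Irf7, 45.8 CPM of the interferon-induced Ifi44, 31.2 CPM of Nexmif, 12.96 CPM of the granulocyte growth factor Csf3 and 81.4 CPM of Rps7. Deficient replicate 3 stood apart for Lep at 40.8 CPM and for the neutrophil gene Retnlg at 3.07 CPM, and deficient replicate 1 for the T cell adaptor Lat at 8.06 CPM. Deficient replicate 2 stood apart for the liver enzyme Cyp2e1 at 906 CPM. Cre-control replicate 3 stood apart for Cyp2e1 at 3283 CPM and for the plasma protein Hp at 2934 CPM, both being libraries with abundant Alb. Cre-control replicate 1 had the highest Greb1 of its group at 28.2 CPM.

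For 5 described genes, Cre controls differed from the mean of floxed controls and wild type (edgeR, adjusted p under 0.05 over all genes). The log2 difference was 6.21 for Ighv6-3, 2.11 for 2410018L13Rik, -1.16 for Rps7-ps3, -2.40 for Gm5977 and -2.44 for Gm6969. For the last 4, the floxed controls lay near the deficient lesions and the wild type near the Cre controls or between the 2.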

How the results depend on the processing

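None of the 75 described genes that were called changed direction under any alternative. The medians of 9 of the 33 lists changed sign with 1 library left out, those of neutrophil, mast cell and basophil, endometrial stroma, smooth muscle, skeletal muscle, adipocyte, liver, type 17 and blood genes. The 813 genes called became 828 with RLE size factors, 865 with a filter of 1 CPM in 4 of the 8 libraries, 813 with no filter, 815 with liver genes left out of the scaling and 674 with limma-voom. They became 132 when only the 8 libraries were fitted (0.221% of all genes higher and 0.4% lower), with 117 shared, 180 without both liver-containing libraries (0.353% higher, 0.494% lower) and 1480 with DESeq2 (3.5% higher, 3.46% lower). Leaving out 1 library gave 202 to 760 genes, with 0.358% to 1.89% of all genes higher and 0.593% to 2.0% lower. RLE size factors moved the share of higher genes among those called to 49.9%, against 42.6%. The share was 58.6% without deficient replicate 2, 52.9% without deficient replicate 3, 32.1% without Cre-control replicate 3 and 34.9% without Cre-control replicate 4, so the majority direction of called genes depended on single libraries. Whether same-numbered replicates are paired samples is not stated in the labels. A replicate block within the 8 libraries left 3 genes (0.00471% of all genes higher, 0.00941% lower), 0 within 5 Mb of Id2, and 0 of the 214 in exchanged lesions. Within 5 Mb of Id2, where 17 genes were called, 7 were called under the CPM filter, which removes low genes, and 8 with only the 8 libraries. The exchanged lesions gave 608 genes with DESeq2 and 54 to 244 with 1 library left out, 250000 ILC2s against added PBS 14 with DESeq2 and 0 with any library left out, and Cre controls against the other competent groups 41 with DESeq2 and 7 to 17 with 1 library left out. Floxed controls against wild type gave 289 to 1179 genes, and 9 to 13 of the 17 near Id2, with 1 library left out. Of the 75 described genes that were called, 43 remained called without both liver-containing libraries, 41 without deficient replicate 4 and 61 with limma-voom, all 75 in the same direction. With only the 8 libraries fitted, 31 of the 71 that had a value remained called, all 71 in the same direction. Of the 75, 25 were called in each of the 16 alternatives other than the block that gave them a value. For the counts that moved, the cause was not tested, except that fewer libraries or genes enter the fits that leave some out. Depth limits genes such as Il5, Il13 and the pseudogenes near Id2, which rest on few reads.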
